A study of Mus musculus with 18 samples.

Results

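The enzymes of glycolysis, the pentose phosphate pathway and the tricarboxylic acid (TCA) cycle were followed at the RNA level in embryonic mouse lungs that lacked Rptor, Tfam or Cox10 in the epithelium. The members were 44 genes found by their symbols among the 23420 genes listed in each table, with 17 in glycolysis, 7 in the pentose phosphate pathway and 20 in the TCA cycle (pyruvate dehydrogenase and pyruvate carboxylase included). Bulk RNA-seq of whole lungs was used at 14.5 days post coitus (dpc), with 18 samples in all. Control embryos were Rptorf/+; ShhCre/+, Tfamf/+; ShhCre/+ or Cox10f/+; ShhCre/+, and deficient littermates were Rptorf/f; ShhCre/+, Tfamf/f; ShhCre/+ or Cox10f/f; ShhCre/+, with 3 samples in each group. By these genotypes, which the study's methods give, all groups carried the Cre allele and at least 1 floxed allele. The legend of the study's heatmaps at this age gives the controls as ShhCre/+ and names no floxed allele. Cre was expressed from the Shh locus and acts in the lung epithelium, while the RNA came from the whole lung, so that mesenchyme, vessels and blood were measured together with the deleted cells. Values are normalised read counts, that is, reads per gene after scaling each sample by its size factor. Between 27675601 and 29704748 reads per sample were assigned to genes.

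Glycolysis splits glucose into pyruvate in the cytosol and yields ATP without oxygen, and lactate dehydrogenase turns pyruvate into lactate. The pentose phosphate pathway branches off at glucose 6-phosphate, and supplies NADPH for biosynthesis and ribose for nucleotides. The TCA cycle in the mitochondrial matrix oxidises acetyl-CoA made from pyruvate, and passes the electrons to the respiratory chain. Raptor, the product of Rptor, is a component of mTOR complex 1 (mTORC1), a kinase complex that promotes growth and is known to act on glycolytic and pentose phosphate genes through transcription factors. The Tfam protein is needed to keep and read the mitochondrial genome, and Cox10 acts in the assembly of cytochrome c oxidase, the last complex of the respiratory chain.

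The targeted genes were examined first. Rptor was at 2298, 2224 and 2197 normalised counts in the control lungs of its line and at 2442, 1986 and 2019.8 in the deficient lungs (log2 difference -0.07 ± 0.08, adjusted p = 0.570). Tfam was at 1057, 1063 and 1185 in the control lungs of its line and at 939.9, 994 and 1106 in the deficient lungs (-0.12 ± 0.08, adjusted p = 0.472). Cox10 was at 753, 812 and 824 in the control lungs of its line and at 809, 829 and 743 in the deficient lungs (-0.01 ± 0.07, adjusted p = 0.979). The groups overlapped for each of the 3 genes, so the whole-gene count of the targeted gene in whole lung did not separate the genotypes. Adjusted p-values here and below are from limma with Benjamini-Hochberg adjustment over all genes tested, and a gene passed at an adjusted p below 0.05. Differences are on the log2(value + 1) scale, deficient minus control, and are given with their standard error (± SE).

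The Rptor deficient sample of replicate 1 stood apart from the other deficient samples of its line in glycolytic genes, and the counts of the Rptor line are therefore also given without it. In that sample the 17 glycolytic genes summed to 169960 normalised counts, against 101830 and 116350 in the other deficient lungs and 137760 to 158920 in the controls. A list of 10 genes known to respond to low oxygen summed to 30113 in that sample, against 14775 and 15730 in the other deficient lungs and 13302 to 14973 in the controls. Named after their values were seen, Bnip3 (a mitochondrial protein of the BCL2 family) was at 2636, 633 and 877 in the deficient lungs of replicates 1, 2 and 3, and Slc2a1 (a glucose transporter) at 7616, 2259.8 and 2740.2. The pentose phosphate genes of the same sample summed to 22127, against 21721 and 21474 in the other deficient lungs, and the TCA genes to 74916, against 74257 and 74479. Replicate 1 was thus apart in the first pathway, while its totals for the other pathways lay within a narrow range. Whether low oxygen had a part in these values was not tested.

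Markers of cell types also moved with the deletion of Rptor. Of all genes tested in that line 16.6% rose and 18.2% fell. Of 10 epithelial markers, 8 fell, and their summed level was 15754 to 22593 in deficient lungs against 39759 to 46016 in controls. Of 8 mesenchymal markers 5 rose (summed level 378260 to 409800 against 188030 to 218580), as did 5 of 5 endothelial markers (37705 to 41817 against 29186 to 30827) and 4 of 4 tested leukocyte markers (3085 to 3614 against 1775 to 1808). The 5 proliferation genes all fell, with a summed level of 58084 to 60000 against 71468 to 78664. By limma 0 of 5 tested erythroid, 5 cardiac and 5 neural markers passed in this line, with 0 at an unadjusted p under 0.05 in each list, and 1 of 4 tested skeletal muscle markers rose. Without deficient replicate 1 the counts were 9 lower for epithelium, 5 higher and 1 lower for mesenchyme and 1 higher for erythroid markers, and did not move for the other lists. With the replicate block 2 erythroid markers rose and 1 mesenchymal marker fell. Of all genes 36.0% passed in either direction without deficient replicate 1 and 38.6% with the block. In the Tfam line 3 of 10 epithelial markers fell (28684 to 33146 against 37225 to 39425) and 1 of 6 cardiac markers rose, Nppa. In the Cox10 line 1 of 10 epithelial markers fell, Foxa2 (summed level 17086 to 25905 against 25210 to 25752). By limma 0 of the mesenchymal, endothelial, leukocyte, erythroid, skeletal muscle, neural and proliferation markers passed in the Tfam line, with 2, 2, 3, 1, 1, 1 and 1 at an unadjusted p under 0.05, and 0 in the Cox10 line, with 3, 0, 1, 1, 0, 0 and 0. Of 6 cardiac markers 0 passed by limma in the Cox10 line, with 0 at an unadjusted p under 0.05. The summed cardiac level was uneven within groups. It was 611 to 2913 in controls and 887 to 1936 in deficient lungs of the Rptor line, and 3646 to 9700 and 6215 to 18606 in the Tfam line. In the Cox10 line it was 578 to 5098 in controls and 585 to 5101.5 in deficient lungs. No marker of the epithelial, mesenchymal, endothelial, leukocyte or proliferation lists was at 0 in any sample. The part of these cell type markers in the results below was not tested, and in whole lung fewer cells of a type and less RNA per cell cannot be told apart.

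All 44 members passed the filter on low values (at least 10 in at least 3 of 6 samples) in each line. In the Rptor line 15 of the 44 members passed the test, 2 higher and 13 lower in deficient lungs, or 34.1% of the members against 34.8% of all genes tested (16.6% higher and 18.2% lower). The share of members called was close to that of all genes, so a count over the members together said nothing particular about them. By pathway, 3 of 17 genes passed in glycolysis, 5 of 7 in the pentose phosphate pathway and 7 of 20 in the TCA cycle. In the Tfam line 1 of 44 members passed, where 4.66% of all genes tested did, and in the Cox10 line 0 of 44 passed, where 0.475% did. The Cox10 share was unstable, with 71 genes called here, 3 without Cox10 control replicate 1 or 3 and 323 by DESeq2.

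**Figure D1:**
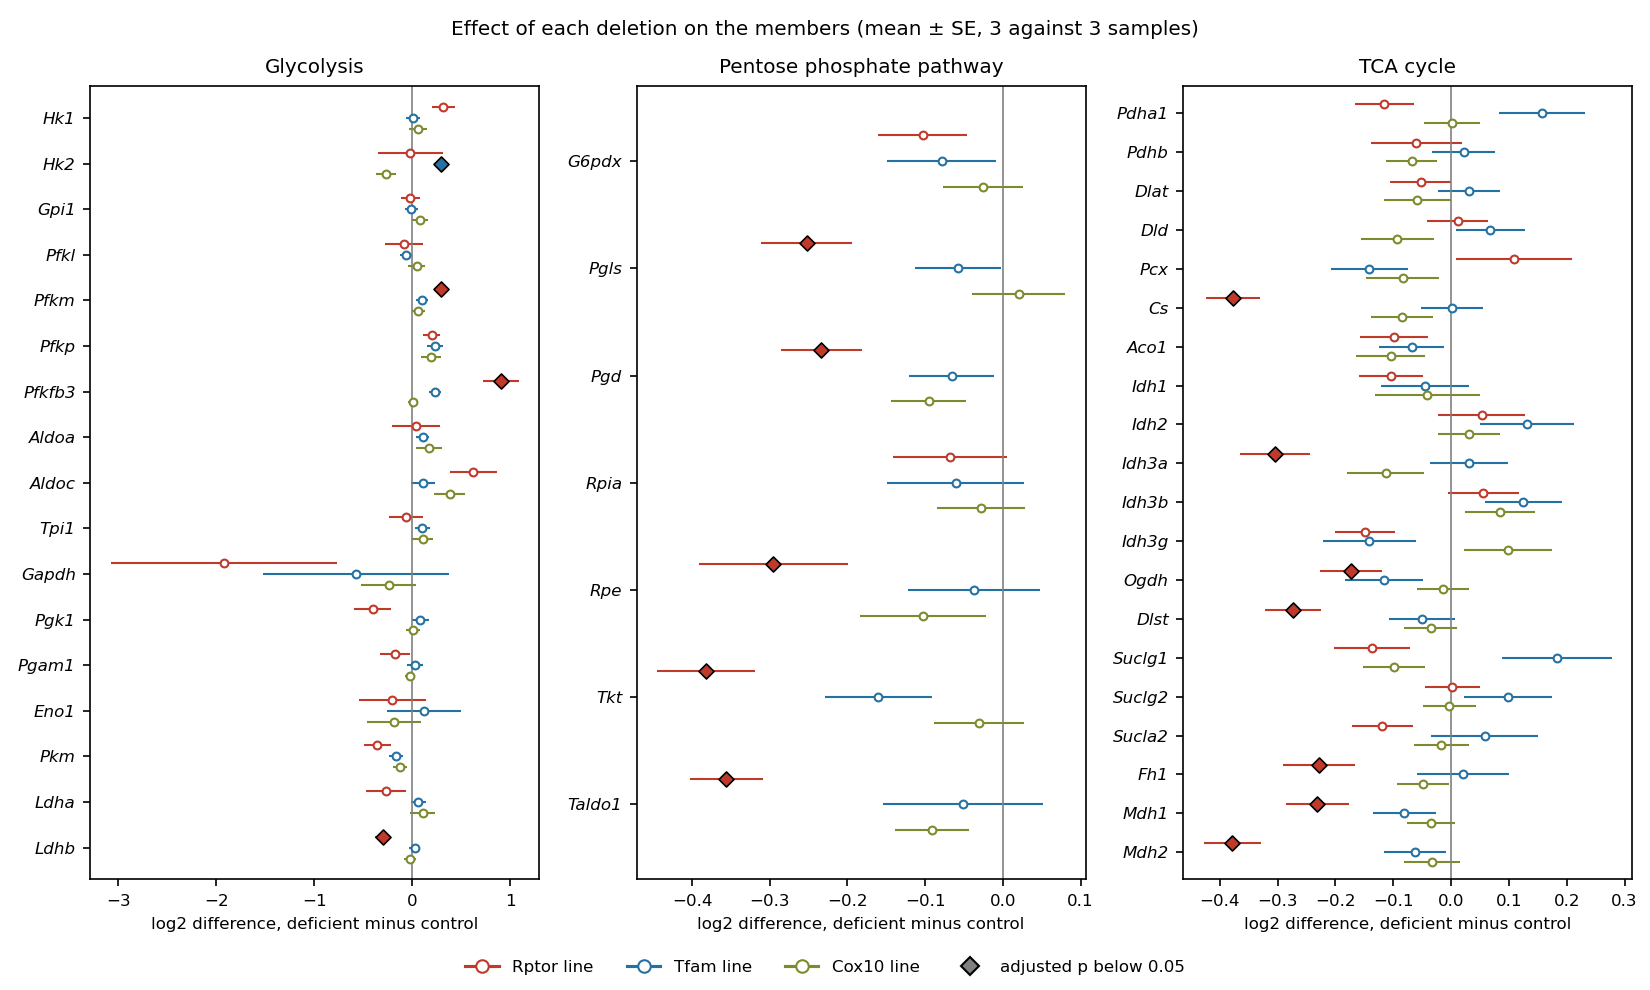
Log2 difference between deficient and control lungs for the 44 members in the 3 lines, by pathway (points, estimate from 3 against 3 samples; bars, SE; filled diamonds, adjusted p below 0.05; each panel has its own horizontal scale). Filled diamonds of the Rptor line lie below 0 in the pentose phosphate and TCA panels, while in the glycolysis panel Pfkfb3 and Pfkm lie above 0 and Ldhb below.

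Levels of the members spanned a wide range. In controls of the Rptor line, the level per kb of exon was 9892 normalised counts for Pkm (pyruvate kinase, the last step of glycolysis) and 7300 for Ldha (a lactate dehydrogenase subunit). It was 4757 for Pgk1 (phosphoglycerate kinase) and 4339 for Tpi1 (triosephosphate isomerase). The TCA gene with the highest level per kb was Idh2 (the mitochondrial NADP isocitrate dehydrogenase), at 4230, and the pentose phosphate gene with the highest was Tkt (transketolase), at 1705. Pkm and Ldha ranked 1 and 2 of 44 in controls of all 3 lines. At the low end, Pfkp (a phosphofructokinase isoform) was at 48.6, Aldoc (an aldolase isoform) at 30.7 and Eno1 (enolase) at 2.66 per kb. Eno1 ranked lowest of the 44 in each line, but its count is uncertain, as described with Gapdh, and its rank is no measure of enolase expression.

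The bases before the start of 5 members are shown as examples with the letters ACGTG (Pfkfb3, Pgk1 and Ldha) and without them (Tkt and Cs). These letters, called the core below, are a form of the core that hypoxia-inducible factors are known to bind. Other forms were not searched, such as GCGTG, which the Tkt sequence holds. The examples were chosen after the values of these genes were seen. RefSeq promoters of the mouse build GRCm38.p6 matched 43 of the 44 members, and Idh3a was not matched. Each sequence holds 250 bases upstream of the start, 5′ to 3′ on the strand of the gene, with ACGTG, or CACGT for the opposite strand, in capitals. Pfkfb3 was taken from chr2:11553930-11554179 (minus strand), Pgk1 from chrX:106186850-106187099 (plus strand), Ldha from chr7:46845554-46845803 (plus strand), Tkt from chr14:30548881-30549130 (plus strand) and Cs from chr10:128337477-128337726 (plus strand).
Pfkfb3: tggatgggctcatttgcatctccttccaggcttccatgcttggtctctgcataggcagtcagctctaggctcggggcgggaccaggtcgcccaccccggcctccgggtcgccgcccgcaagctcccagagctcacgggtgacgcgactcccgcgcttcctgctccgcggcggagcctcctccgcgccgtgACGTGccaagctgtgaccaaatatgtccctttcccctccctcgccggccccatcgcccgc
Pgk1: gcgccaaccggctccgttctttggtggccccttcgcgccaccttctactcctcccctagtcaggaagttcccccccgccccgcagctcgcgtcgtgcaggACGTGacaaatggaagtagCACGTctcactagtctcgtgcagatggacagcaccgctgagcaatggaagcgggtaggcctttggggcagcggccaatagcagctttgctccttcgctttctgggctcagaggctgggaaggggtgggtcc
Ldha: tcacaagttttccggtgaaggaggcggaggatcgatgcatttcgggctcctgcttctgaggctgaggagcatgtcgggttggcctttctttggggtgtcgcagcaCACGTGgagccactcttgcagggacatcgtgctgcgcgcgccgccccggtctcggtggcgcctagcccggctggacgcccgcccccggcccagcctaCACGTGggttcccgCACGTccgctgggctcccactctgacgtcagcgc
Tkt: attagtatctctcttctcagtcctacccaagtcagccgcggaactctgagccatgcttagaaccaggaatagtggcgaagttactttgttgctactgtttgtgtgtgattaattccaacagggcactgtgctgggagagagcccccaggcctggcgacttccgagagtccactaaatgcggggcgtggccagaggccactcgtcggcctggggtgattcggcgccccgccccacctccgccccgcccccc
Cs: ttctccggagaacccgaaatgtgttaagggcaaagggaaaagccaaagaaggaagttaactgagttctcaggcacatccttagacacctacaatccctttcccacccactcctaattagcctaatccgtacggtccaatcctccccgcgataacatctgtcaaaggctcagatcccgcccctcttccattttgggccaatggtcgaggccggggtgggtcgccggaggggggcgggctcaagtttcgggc
The core stood in 6 of the 17 glycolytic promoters (35.29%; Hk2, Pfkm, Pfkfb3, Pgk1, Pgam1 and Ldha), in 0 of 7 pentose phosphate promoters and in 5 of 19 TCA promoters (26.32%; Pcx, Idh3g, Ogdh, Mdh1 and Pdhb), against 16.53% of 27025 promoters of the same length. The E-box CACGTG, which reads the same on both strands and holds the core on each of them, stood in 2 glycolytic promoters (Ldha and Pfkm), in 0 pentose phosphate promoters and in 1 TCA promoter (Pcx), against 6.04% of all promoters. The Ldha sequence holds 2 such E-boxes and 1 further core. Of the glycolytic genes that were above all controls in deficient replicate 1 of the Rptor line, Hk2, Pfkm, Pfkfb3, Pgam1 and Ldha hold the core and Hk1, Gpi1, Pfkl, Pfkp, Aldoa, Aldoc and Tpi1 do not. A match is a description of letters and not of binding, and the absence of a match refers to the letters ACGTG and to this window alone.

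Glycolytic genes of the Rptor line moved in both directions. By limma 2 of 17 rose, Pfkfb3 and Pfkm, and 1 fell, Ldhb, with a median log2 difference of -0.06 over the 17 genes against 0.01 over all genes tested. Without deficient replicate 1 the counts were 2 higher and 9 lower, with a median of -0.35, where 36.0% of all genes passed in that fit. Replicate 1 was singled out by its high glycolytic values, so that leaving it out lowers the deficient means of these genes by construction, and the fits without it describe the other 5 samples and are no independent test. With the replicate number as a block 4 were higher and 3 lower, where 38.6% of all genes passed. Deficient and control values did not overlap for 5 of the 17 genes, against 50.3% of all genes tested.

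Pfkfb3 encodes an enzyme that makes fructose bisphosphate of the kind that activates phosphofructokinase. It was at 2561, 2379.8 and 2464 normalised counts in controls and at 6539.7, 3683 and 4113 in deficient lungs. All deficient samples were above all controls, and replicate 1 was the highest. The log2 difference was 0.91 ± 0.18 (adjusted p = 0.00589), and without replicate 1 it was 0.66 ± 0.06 (adjusted p = 0.000176). It passed under all 10 other settings and with each sample left out. Pfkm, a phosphofructokinase isoform known from muscle, was at 1722, 1688 and 1805 in controls and at 2326, 1996 and 2077 in deficient lungs. The groups did not overlap, and the log2 difference was 0.29 ± 0.07 (adjusted p = 0.0131), or 0.23 ± 0.06 without replicate 1 (adjusted p = 0.0155). Without control replicate 2 Pfkm no longer passed (adjusted p = 0.0514). The other phosphofructokinase isoforms did not pass, with log2 differences of 0.20 ± 0.09 for Pfkp and -0.08 ± 0.20 for Pfkl.

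Ldhb, the lactate dehydrogenase subunit known from heart, fell. It was at 2939.9, 2582 and 3026 in controls and at 2517, 2213 and 2212 in deficient lungs. Every deficient value was below every control value (log2 difference -0.30 ± 0.08, adjusted p = 0.0202). Its adjusted p ranged from 0.00558 to 0.0765 with a sample left out, and it did not pass without control replicate 1 or 3 or deficient replicate 2 or 3. Ldha, the other subunit, was at 26977, 22820 and 22690 in controls and at 29108, 15180 and 18054 in deficient lungs. Replicate 1 lay above the controls and the other deficient lungs below them (log2 difference -0.27 ± 0.20, adjusted p = 0.338). Without replicate 1 the difference was -0.54 ± 0.10 (adjusted p = 0.00330).

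Hk2 is an inducible hexokinase, which traps glucose in the cell as glucose 6-phosphate. It was at 2998, 2509 and 2422 in controls and at 5008, 1866 and 1880.5 in deficient lungs of the Rptor line. Replicate 1 was the highest and the other deficient samples were below all controls, so that the log2 difference was -0.02 ± 0.33 with it (adjusted p = 0.972) and -0.49 ± 0.09 without it (adjusted p = 0.00323). Hk1, the widely expressed hexokinase, was at 1708, 1468 and 1684 in controls and at 2442, 1778 and 1888 in deficient lungs. The groups did not overlap and Hk1 missed the threshold (log2 difference 0.32 ± 0.12, adjusted p = 0.0661), while it passed with the replicate block (adjusted p = 0.0145). Without replicate 1 its difference was 0.18 ± 0.08 and did not pass.

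The same split between replicate 1 and the other deficient lungs ran through the lower steps of glycolysis. Pkm was at 53903, 45867 and 48638 in controls and at 48517, 32918 and 36032 in deficient lungs. Its log2 difference was -0.35 ± 0.13 (adjusted p = 0.0712), against -0.52 ± 0.08 without replicate 1 (adjusted p = 0.00196) and an adjusted p of 0.00952 with the block. Pgk1 was at 11901, 10508 and 9617 in controls and at 11338, 6653 and 6886 in deficient lungs, with a log2 difference of -0.40 ± 0.19 (adjusted p = 0.123). Without replicate 1 the difference was -0.65 ± 0.08 (adjusted p = 0.000617), and the adjusted p was 0.0173 with the block. In both genes replicates 2 and 3 lay below all controls.

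Aldoa (the main aldolase), Tpi1, Pgam1 (phosphoglycerate mutase) and Pfkl (the liver type phosphofructokinase) were also highest in replicate 1. Aldoa was at 12441, 10168 and 11219 in controls and at 18203, 8354 and 10121 in deficient lungs (log2 difference 0.04 ± 0.24), and at -0.29 ± 0.10 without replicate 1, just under the threshold. The differences without replicate 1 were -0.29 ± 0.08 for Tpi1 (adjusted p = 0.0246), -0.38 ± 0.08 for Pgam1 (adjusted p = 0.00613) and -0.35 ± 0.08 for Pfkl (adjusted p = 0.00993). With all 6 samples they were -0.06 ± 0.17, -0.18 ± 0.15 and -0.08 ± 0.20, and none of these genes passed. Gpi1 (glucose phosphate isomerase) did not pass with or without replicate 1, at -0.02 ± 0.10 and -0.13 ± 0.07. Aldoc was at 123, 80.9 and 96.5 in controls and at 201, 109.9 and 160.1 in deficient lungs (log2 difference 0.62 ± 0.24, adjusted p = 0.0760), and passed with the block (adjusted p = 0.0121). Without replicate 1 its difference was 0.42 ± 0.23 (adjusted p = 0.177).

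**Figure D2:**
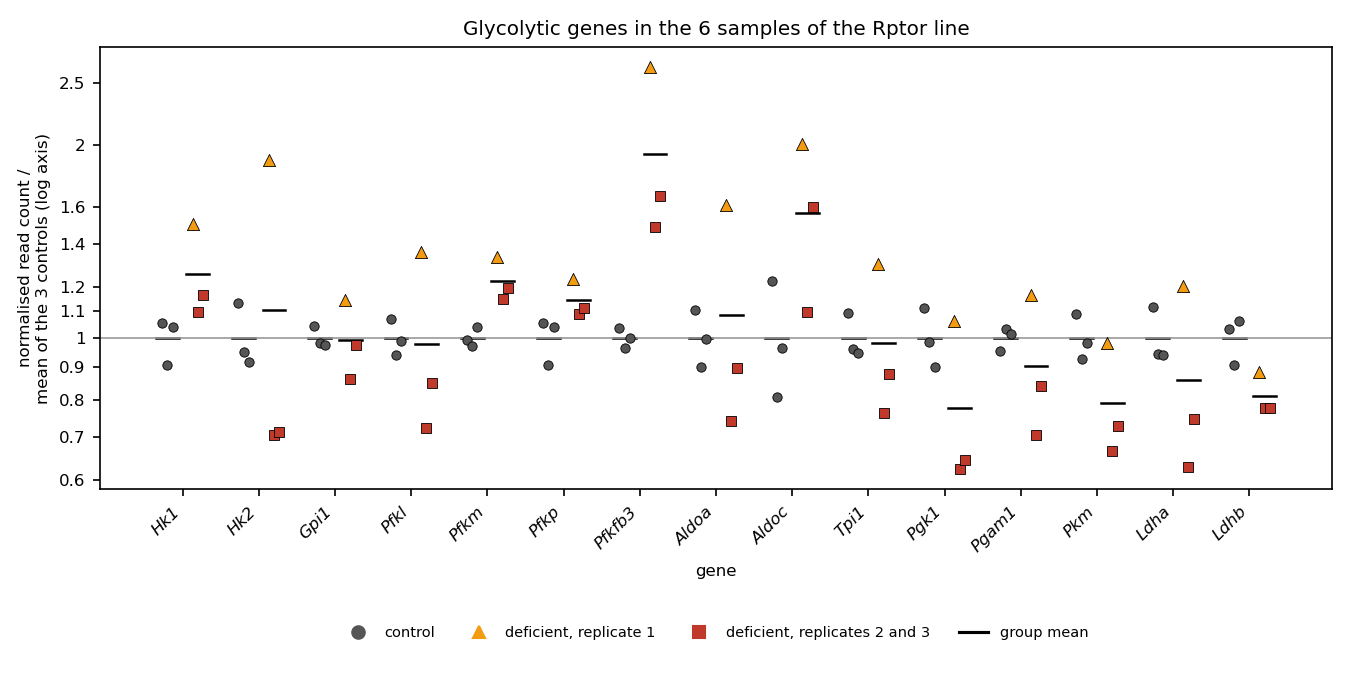
Normalised read count of 15 glycolytic genes in the 6 samples of the Rptor line, divided by the mean of the 3 controls (log axis; circles, controls; triangles, deficient replicate 1; squares, deficient replicates 2 and 3; bars, group means; Gapdh and Eno1 are not drawn). Triangles lie above the squares in all 15 genes, and for Hk2, Ldha and Pgk1 the squares lie below all controls.

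Gapdh and Eno1 were too uncertain to be read. Gapdh (glyceraldehyde phosphate dehydrogenase) was at 5272, 6272 and 316 in Rptor controls and at 494, 199 and 1948 in deficient lungs. In Tfam controls it was at 1595, 336 and 6788, and in the deficient lungs at 2559, 1447 and 297. The highest control value was 19.8 times the lowest in the Rptor line and 20.2 times in the Tfam line, while the other members with a mean of at least 500 stayed within 1.24 and 1.38 times. Eno1 was between 7.92 and 18.9 normalised counts in the 18 samples. Gm5506, to which the RefSeq table gives the synonym Eno1b, was at 287, 2348 and 2299.7 in Rptor controls and at 264, 189 and 198 in deficient lungs. How reads that match several places were counted is not given in the sources used here, so the values of Gapdh, Eno1 and Gm5506 are uncertain, and the log2 difference of -1.92 ± 1.15 for Gapdh in the Rptor line (adjusted p = 0.228) carries no direction.

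**Figure D3:**
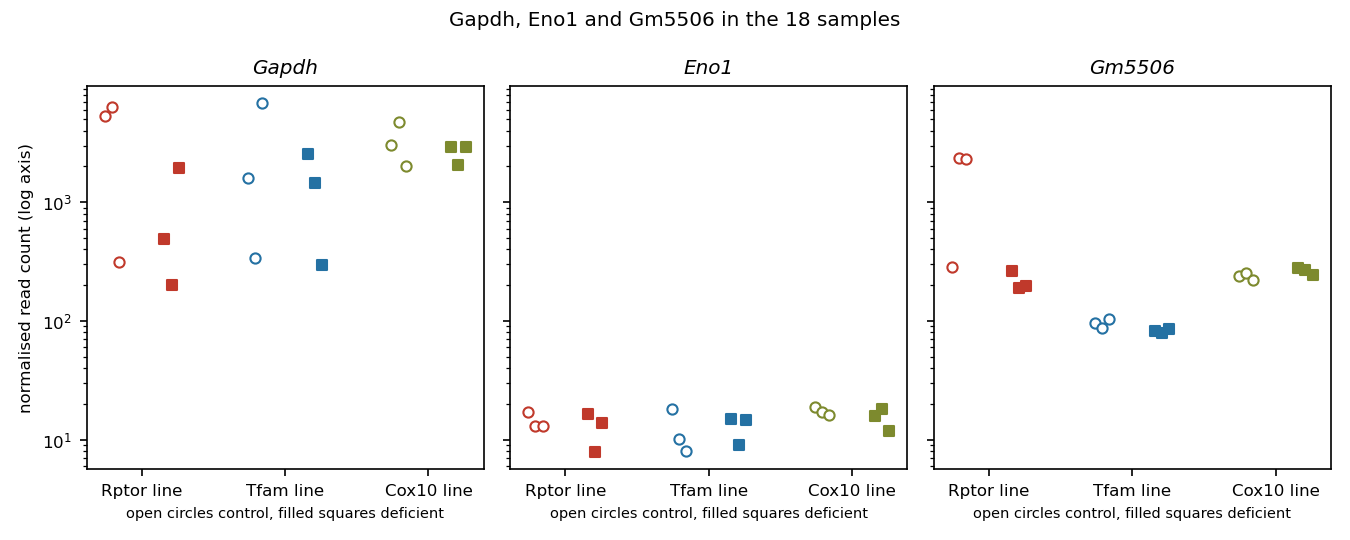
Normalised read counts of Gapdh, Eno1 and Gm5506 in the 18 samples, by line and group (log axis). Gapdh spreads from 199 to 6788 over the samples, Eno1 stays between 7.92 and 18.9, and Gm5506 is at 2348 and 2299.7 in 2 Rptor controls.

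Tfam-deficient lungs had 1 glycolytic gene of 17 that passed, and the median log2 difference over the 17 was 0.08. Hk2 was at 1326, 1377 and 1449 in controls and at 1545, 1720.3 and 1826 in deficient lungs. The groups did not overlap and the log2 difference was 0.29 ± 0.07 (adjusted p = 0.0468). The rise did not pass without control replicate 1 or 2 or deficient replicate 2 or 3, with an adjusted p of up to 0.189, nor under TMM, with no filter, with the Xist covariate or in the fit of all 18 samples, with an adjusted p of up to 0.644. Pfkfb3 was at 2217, 1940.3 and 2037 in controls and at 2470.3, 2392 and 2410.5 in deficient lungs, above all controls (log2 difference 0.23 ± 0.06, adjusted p = 0.0631). Ldha was at 19633, 18116 and 20701 in controls and at 18913, 20015 and 22166 in deficient lungs, with overlap (log2 difference 0.06 ± 0.08, adjusted p = 0.743). The other lactate dehydrogenase subunit, Ldhb, overlapped as well, at 2785, 2935 and 2961 in controls and 3030.1, 2824 and 2975 in deficient lungs (log2 difference 0.02 ± 0.06). Values did not overlap for 5 of the 17 genes, against 22.8% of all genes.

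In the Cox10 line 0 of 17 glycolytic genes passed by limma, 2 had an unadjusted p under 0.05, and edgeR and DESeq2 called 0 as well. Hk2 was at 3380.5, 3311 and 3318 in controls and at 3029, 3056 and 2323 in deficient lungs, without overlap (log2 difference -0.26 ± 0.10, adjusted p = 0.353). It was the 1 glycolytic gene of the line without overlap, against 21.3% of all genes. Ldha was at 24585, 21217 and 24912 in controls and at 25194, 21386 and 30129 in deficient lungs (log2 difference 0.11 ± 0.12). Pfkfb3 was at 3361, 3305 and 3176 in controls and at 3477, 3280.2 and 3144 in deficient lungs (log2 difference 0.01 ± 0.05). The groups overlapped for both.

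In the pentose phosphate pathway 5 of 7 genes fell in the Rptor line, where 18.2% of all genes tested fell, and none rose. All 7 log2 differences were below 0 (median -0.25). The genes that passed were Tkt, Taldo1, Rpe, Pgls and Pgd, with 5 also under the replicate block and 4 without deficient replicate 1, under library totals, with no filter and with the Xist covariate. Deficient and control values did not overlap for 6 of the 7 genes, where 50.3% of all genes did not. The summed level of the 7 genes was 26633 to 27036 in controls and 21474 to 22127 in deficient lungs.

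The oxidative steps make NADPH. G6pdx (glucose 6-phosphate dehydrogenase, the entry enzyme) was at 1864, 1822 and 1869 in controls and at 1710.1, 1657 and 1807 in deficient lungs. All deficient values were lower, but the difference did not pass (log2 difference -0.10 ± 0.06, adjusted p = 0.195). Pgls (phosphogluconolactonase) was at 2062, 1964 and 2069 in controls and at 1718, 1626 and 1774 in deficient lungs (log2 difference -0.25 ± 0.06, adjusted p = 0.0114). Pgd (phosphogluconate dehydrogenase) was at 4822, 4516 and 4712 in controls and at 3964, 3869 and 4115 in deficient lungs (log2 difference -0.23 ± 0.05, adjusted p = 0.00948). Of the oxidative steps the second and the third thus passed, and the difference between these genes and G6pdx was not tested.

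The non-oxidative steps exchange sugar carbons with glycolysis. Taldo1 (transaldolase) was at 3552, 3599 and 3565 in controls and at 2775, 2776 and 2823 in deficient lungs. The replicates lay close together and the groups far apart, and Taldo1 fell by 21.9% (log2 difference -0.36 ± 0.05, adjusted p = 0.000947). Tkt was at 12044, 12942 and 12627 in controls and at 10078, 9928 and 8887 in deficient lungs, and fell by 23.3% (log2 difference -0.38 ± 0.06, adjusted p = 0.00246). Rpe (ribulose phosphate epimerase) was at 1164, 1201 and 1044 in controls and at 833, 909 and 1042 in deficient lungs. Its groups came close at replicate 3 without overlap (log2 difference -0.30 ± 0.10, adjusted p = 0.0428), and it did not pass without control replicate 1 or 2 or deficient replicate 1 or 2, with an adjusted p of up to 0.139, nor under library totals, with no filter or with the Xist covariate. Rpia (ribose phosphate isomerase) was at -0.07 ± 0.07 on the log2 scale and did not pass.

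In the Tfam line 0 of 7 pentose phosphate genes passed by limma, edgeR or DESeq2, and 1 had an unadjusted p under 0.05. All 7 log2 differences were below 0 as well, with a median of -0.06. Tkt was at 12742, 14311 and 12856 in controls and at 12539, 11991 and 11177 in deficient lungs, the 1 gene of the pathway without overlap (log2 difference -0.16 ± 0.07, adjusted p = 0.261), where 22.8% of all genes had none. G6pdx was at 2760.4, 2643 and 2447 in controls and at 2507, 2645 and 2284 in deficient lungs, with overlap (log2 difference -0.08 ± 0.07). In the Cox10 line 0 of 7 passed by limma, edgeR or DESeq2, with 0 at an unadjusted p under 0.05 in limma, and the median was -0.03. G6pdx was at 1905, 1746 and 1862 in controls and at 1834, 1783 and 1796 in deficient lungs (log2 difference -0.03 ± 0.05). Tkt was at 12354, 12024 and 12425 in controls and at 12527, 12369 and 11172 in deficient lungs (log2 difference -0.03 ± 0.06). Pgls was at 1744, 1759 and 1839 in controls and at 1797, 1697 and 1929 in deficient lungs (log2 difference 0.02 ± 0.06). The groups overlapped for these 3 genes, and did not for 2 others of the 7, Pgd and Taldo1, where 21.3% of all genes did not.

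TCA genes of the Rptor line were lower or not called. By limma 7 of 20 fell (Cs, Idh3a, Ogdh, Dlst, Fh1, Mdh1 and Mdh2) and none rose, with a median log2 difference of -0.12. In that fit 34.8% of all genes passed in either direction and 18.2% fell, so the count of TCA genes called was near that of all genes in either direction. Counts of 0 higher and 7 lower were also found without deficient replicate 1 (all genes in either direction, 36.0%) and with the replicate block (38.6%). Values did not overlap for 13 of the 20 genes, where 50.3% of all genes did not. The summed level was 81391 to 83684 in controls and 74257 to 74916 in deficient lungs.

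Cs (citrate synthase, which opens the cycle) was at 9403, 9631 and 9699 in controls and at 7306, 7556 and 7265 in deficient lungs. The groups were far apart compared with the spread within them, and Cs fell by 23.0% (log2 difference -0.38 ± 0.05, adjusted p = 0.000724). Mdh2 (mitochondrial malate dehydrogenase, which closes the cycle) was at 7530.3, 7449 and 7821 in controls and at 6046, 5806 and 5695 in deficient lungs (log2 difference -0.38 ± 0.05, adjusted p = 0.000932). Idh3a (the catalytic subunit of the NAD isocitrate dehydrogenase) was at 2045, 2085 and 2091 in controls and at 1644, 1792 and 1607 in deficient lungs (log2 difference -0.30 ± 0.06, adjusted p = 0.00592). Dlst (the succinyltransferase of the oxoglutarate dehydrogenase complex) was at 6217, 6278 and 6080.5 in controls and at 5141, 5259 and 4972 in deficient lungs (log2 difference -0.27 ± 0.05, adjusted p = 0.00342). Each of the 4 genes passed under all 10 other settings and with each sample left out.

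Mdh1, the cytosolic malate dehydrogenase, fell by 0.23 ± 0.05 on the log2 scale (adjusted p = 0.0116), and Fh1 (fumarase) fell by 0.23 ± 0.06 (adjusted p = 0.0223). Ogdh, the subunit that decarboxylates oxoglutarate, fell by 0.17 ± 0.05 (adjusted p = 0.0358). Fh1 did not pass without control replicate 1 or 3 or deficient replicate 2 (adjusted p up to 0.0831). Among the fits that left out a sample, Ogdh passed in 1, that without deficient replicate 1, and its adjusted p was up to 0.115 in the others.

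The remaining subunits and enzymes of the cycle did not pass in the Rptor line. Idh3b and Idh3g, the other subunits of the NAD isocitrate dehydrogenase, had log2 differences of 0.06 ± 0.06 (adjusted p = 0.507) and -0.15 ± 0.05 (adjusted p = 0.0547). Those of the pyruvate dehydrogenase complex, which feeds the cycle, were -0.12 ± 0.05 for Pdha1, -0.06 ± 0.08 for Pdhb, -0.05 ± 0.05 for Dlat and 0.01 ± 0.05 for Dld. The succinyl-CoA ligase subunits Suclg1, Suclg2 and Sucla2 had -0.14 ± 0.07, 0.0025 ± 0.05 and -0.12 ± 0.05. The isocitrate dehydrogenases Idh1 and Idh2 and the cytosolic aconitase Aco1 had -0.10 ± 0.06, 0.05 ± 0.08 and -0.10 ± 0.06. Differences between subunits of the same enzyme were not tested.

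Pcx (pyruvate carboxylase, which makes oxaloacetate from pyruvate) was at 839.7, 820.2 and 802 in controls and at 1028, 790.2 and 853 in deficient lungs of the Rptor line. Replicate 1 was the highest of the 6 samples (log2 difference 0.11 ± 0.10, adjusted p = 0.426, and 0.00092 ± 0.07 without replicate 1). In the Tfam line Pcx was at 973, 917 and 878 in controls and at 824, 835 and 849 in deficient lungs, without overlap (log2 difference -0.14 ± 0.07, adjusted p = 0.307). In the Cox10 line it was at 910.1, 897 and 881 in controls and at 882, 864 and 793 in deficient lungs, with overlap (log2 difference -0.08 ± 0.06, adjusted p = 0.581).

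**Figure D4:**
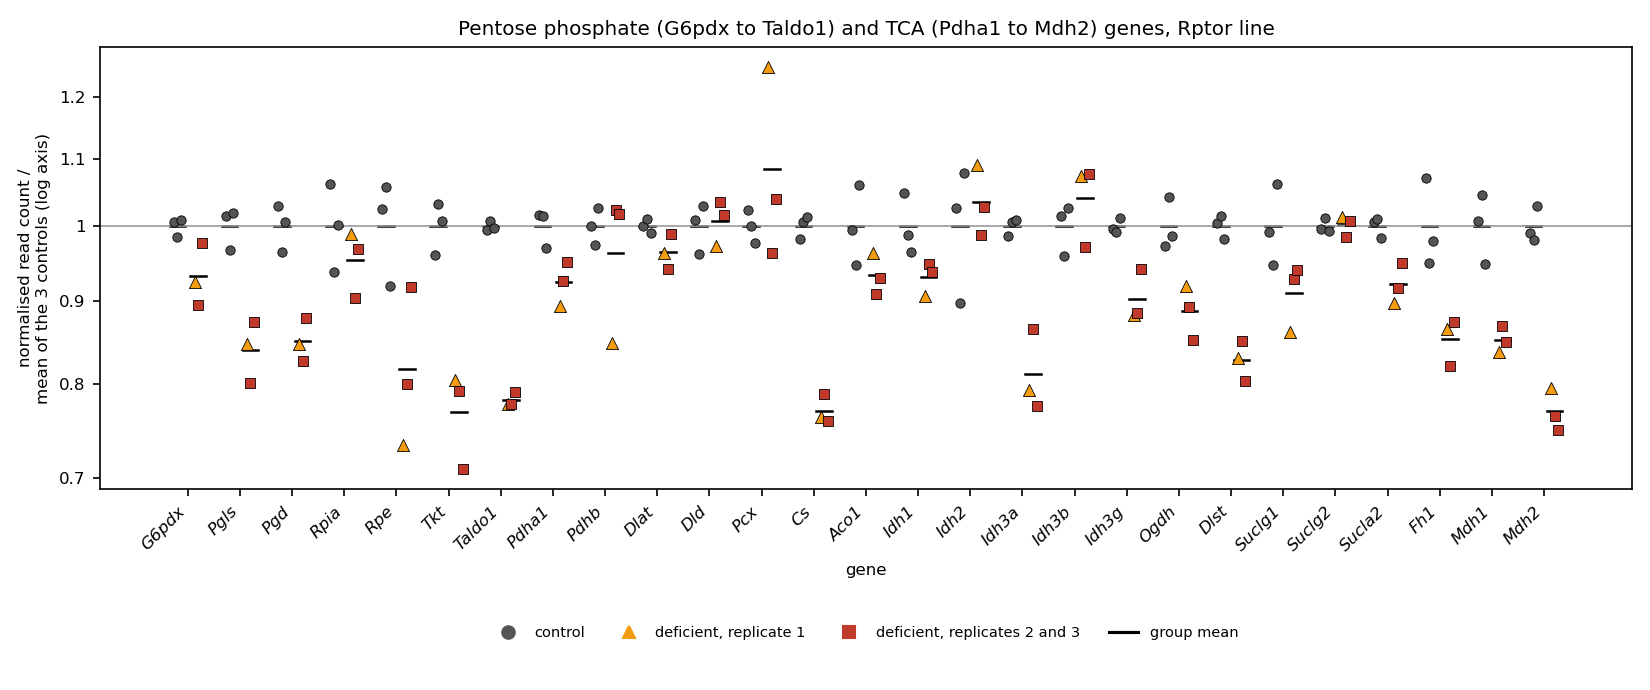
Normalised read count of the 7 pentose phosphate genes (G6pdx to Taldo1) and the 20 TCA genes (Pdha1 to Mdh2) in the 6 samples of the Rptor line, divided by the mean of the 3 controls (log axis; symbols as in the plot of glycolytic genes). All 3 deficient samples of Tkt, Taldo1, Cs, Dlst and Mdh2 lie below all controls, and replicate 1 lies above the other deficient samples in Pcx.

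In the Tfam line 0 of 20 TCA genes passed by limma, edgeR or DESeq2, with 0 at an unadjusted p under 0.05 in limma, and the median log2 difference was 0.02. Without control replicate 3, 2 genes passed, Idh2 (adjusted p = 0.0309) and Suclg1 (adjusted p = 0.0270), both higher in deficient lungs, where 7.46% of all genes passed. Cs was at 9682, 9685 and 9519.7 in controls and at 9454, 9568 and 9905 in deficient lungs (log2 difference 0.0018 ± 0.05). Idh3a was at 1425, 1491 and 1628 in controls and at 1625, 1512 and 1502 in deficient lungs (log2 difference 0.03 ± 0.07). Dlst was at 5105, 5304 and 5509 in controls and at 4886, 5192 and 5296 in deficient lungs (log2 difference -0.05 ± 0.06). The groups overlapped for these 3 genes. Mdh2 did not overlap, at 7414, 7816 and 7590.2 in controls and 7379, 7354 and 7125 in deficient lungs (log2 difference -0.06 ± 0.05), and with Pcx it was 1 of 2 such genes among the 20, where 22.8% of all genes did not overlap.

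In the Cox10 line 0 of 20 TCA genes passed by limma, edgeR or DESeq2, with 0 at an unadjusted p under 0.05 in limma, and the median log2 difference was -0.04. Cs was at 9465, 10043 and 9824 in controls and at 9406, 9572 and 8700 in deficient lungs (log2 difference -0.08 ± 0.05). Mdh2 was at 6898, 6748 and 7038 in controls and at 7017, 6730.4 and 6481 in deficient lungs (log2 difference -0.03 ± 0.05). Dlst was at 5980, 6165 and 5863 in controls and at 6034, 5819 and 5719 in deficient lungs (log2 difference -0.04 ± 0.05). The groups overlapped for these 3 genes, and did not for 2 others of the 20, Pdhb and Aco1, where 21.3% of all genes did not.

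Whether the deletions differed was tested as the difference of their effects. Effects in the Rptor and Tfam lines differed for 6 of 44 members, against 11.2% of 14550 genes, with 2 in glycolysis (Pfkfb3 and Ldhb), 0 in the pentose phosphate pathway and 4 in the TCA cycle (Cs, Idh3a, Dlst and Mdh2). Effects in the Rptor and Cox10 lines differed for 6 of 44 members, against 7.48% of genes, with 1 in glycolysis (Pfkfb3), 2 in the pentose phosphate pathway (Pgls and Tkt) and 3 in the TCA cycle (Cs, Dlst and Mdh2). Both comparisons rest on the same Rptor samples. Pfkfb3 had the higher effect in the Rptor line, and the other genes the lower. The difference for Cs was -0.38 ± 0.06 against the Tfam line (adjusted p = 0.00143) and -0.29 ± 0.06 against the Cox10 line (adjusted p = 0.00957), and it passed with each of the 18 samples left out, as did that of Mdh2. Between the Tfam and Cox10 lines 0 of 44 members differed by limma, edgeR or DESeq2, and 2 had an unadjusted p under 0.05 in limma, where 0.0550% of all genes differed.

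These counts moved with single samples, as did the share of all genes that differed. Without Rptor deficient replicate 1, 9 members differed for Rptor against Tfam, 7 of them in glycolysis, where 8.57% of all genes did. In the same fit 8 differed for Rptor against Cox10, 5 of them in glycolysis, where 6.12% of all genes did. For Rptor against Tfam the count was 11 without Tfam control replicate 3 (all genes, 15.6%) and 2 without Tfam control replicate 1 (7.88%). It was 3 without Rptor control replicate 2 (7.19%) or 3 (8.99%), Rptor deficient replicate 3 (10.3%), Tfam control replicate 2 (5.87%) or Tfam deficient replicate 3 (6.43%). For Rptor against Cox10 it was 3 without Cox10 control replicate 1 (4.68%) or 3 (4.74%) or Cox10 deficient replicate 1 (6.96%). With the replicate block 11 members differed between Rptor and Tfam (15.9% of all genes), with Pgk1, Taldo1, Pdha1, Suclg1 and Fh1 added, and 7 between Rptor and Cox10 (1456 of 14550 genes), with Idh3g added.

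Genes of the same pathways outside the 44 were taken from lists of neighbouring enzymes, transporters and regulators. In the Rptor line 5 of 17 tested glycolytic neighbours rose and 2 fell, 2 of 6 pentose phosphate neighbours rose and 2 fell, 3 of 22 TCA neighbours rose and 5 fell, and 1 of 10 genes of the hypoxia list rose, where 34.8% of all genes passed. Without deficient replicate 1 (36.0% of all genes) the counts were 6 and 3, 1 and 2, 2 and 5, and 1 and 0, and with the replicate block (38.6%) they were 5 and 2, 3 and 2, 3 and 6, and 4 and 0. Hkdc1, a hexokinase-like gene, was at 108, 104 and 121 in controls and at 27.5, 41.6 and 51.4 in deficient lungs (log2 difference -1.48 ± 0.24, adjusted p = 0.00217). Ndrg1, of the hypoxia list, was at 376, 401 and 396 in controls and at 1329, 726 and 784 in deficient lungs (log2 difference 1.22 ± 0.20, adjusted p = 0.00247). These were the largest changes of these lists among the genes that passed. Pdk4, a kinase that inhibits pyruvate dehydrogenase, rose with a log2 difference of 1.04 ± 0.20 (adjusted p = 0.00542), Eno2 (an enolase known from neurons) with 0.87 ± 0.19 (adjusted p = 0.00774) and Slc2a3 (a glucose transporter) with 0.79 ± 0.21 (adjusted p = 0.0211). Slc2a3 did not pass without control replicate 1, 2 or 3 (adjusted p up to 0.0686), and the other 4 passed with each sample left out. Of the succinate dehydrogenase genes, Sdhb and Sdhd fell, at -0.18 ± 0.06 (adjusted p = 0.0352) and -0.24 ± 0.05 (adjusted p = 0.0105), while Sdha and Sdhc did not pass, at 0.05 ± 0.06 and -0.04 ± 0.05. Sdhb passed in 1 of the 6 fits that left out a sample, that without deficient replicate 3 (adjusted p up to 0.123 in the others).

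Among the neighbours in the Tfam line, 2 of 17 tested glycolytic genes rose and 1 fell, and 1 of 22 TCA genes rose, where 4.66% of all genes passed. By limma 0 of 6 pentose phosphate neighbours passed, with 0 at an unadjusted p under 0.05, and 0 of 10 genes of the hypoxia list, with 2. Slc2a1 was at 2915, 2966 and 2777 in controls and at 3644, 3725 and 3749 in deficient lungs (log2 difference 0.36 ± 0.05, adjusted p = 0.00294). Slc2a3 was at 545, 475 and 460.1 in controls and at 717, 726 and 789 in deficient lungs (log2 difference 0.59 ± 0.08, adjusted p = 0.00236). Both glucose transporters were above all controls in every deficient lung. So was Pck2, the mitochondrial phosphoenolpyruvate carboxykinase, at 1863, 1876 and 1918 in controls and 2555, 2422 and 2558 in deficient lungs (log2 difference 0.41 ± 0.05, adjusted p = 0.00137). Hkdc1 fell, with 84.3, 72.8 and 83.0 in controls and 36.7, 51.6 and 42.0 in deficient lungs (log2 difference -0.88 ± 0.18, adjusted p = 0.0184), and did not pass without control replicate 1 or deficient replicate 1 or 3 (adjusted p up to 0.0895). The 4 succinate dehydrogenase genes did not pass in the Tfam or the Cox10 line. In the Cox10 line 0 of the neighbours and the hypoxia list passed by limma, with 4 glycolytic, 0 pentose phosphate, 3 TCA and 1 hypoxia gene at an unadjusted p under 0.05.

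Of the members, G6pdx, Pgk1, Pdha1 and Idh3g are on the X chromosome, and the level of Xist, the transcript of the inactive X, was not balanced between groups. It was at 35776, 32.0 and 25866 in Rptor controls and at 72.4, 24.8 and 35799 in deficient lungs. In the limma fits of each line on its own, with all 6 samples and no block, none of the 4 genes passed, with or without the log2 Xist value as a covariate. Pgk1 passed in 2 of the 10 other settings in the Rptor line, the replicate block among them.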

How the data were processed

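RNA-seq was done on 18 whole-lung samples. Per the study's methods RNA was purified with TRIzol and a column kit and sequenced on a BGISEQ-500, while the labels name an Illumina library protocol. Per the labels the reads were handled with Trim Galore, HISAT2, featureCounts and DESeq2 on mm10. The versions, the annotation, the strand setting and the counting of reads with several matches are not given in the sources used here.

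The authors deposited 1 table per line of normalised read counts, a signal in which the reads of each sample were scaled by 1 factor. In all 18 columns 100% of the values were whole multiples of 1 step of 0.978 to 1.02 (tolerance 0.05), which gave back 27675601 to 29704748 reads per sample. The deposited log2 fold changes, p-values and adjusted p-values of the authors' own comparisons were not used. Deficient lungs and controls were littermates per the study's methods. Whether each sample was a single embryo is not given in the sources used here, so p-values measure the spread between these samples.

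Values were tested as log2(value + 1) with limma 3.58.1 in R 4.3.3, within each table, over genes at 10 or more in at least 3 of 6 samples (14940 genes for Rptor, 15053 for Tfam and 14937 for Cox10), with Benjamini-Hochberg adjustment over all of them. Differences between lines were interaction terms in 1 model of the 18 samples over 14550 genes, since tables were normalised separately. Alternatives were other scalings, filters, pseudocounts and thresholds, a replicate block, an Xist covariate, a fit of all samples, edgeR 4.0.16 and DESeq2 1.42.0 on the recovered reads, and leaving out each sample. Scripts were tested on simulated data. Same-numbered control and deficient samples of the Rptor line deviated together from their group means over genes (r = 0.221, 0.330 and 0.259), so that blocked values are given there. No source says what the numbers share. Levels per kb used exon lengths of GENCODE vM21, and promoters came from RefSeq (GRCm38.p6).

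The members and the gene lists were chosen with earlier results of these data known. Values in every sample are given for the 3 members of largest rise and of largest fall that passed per pathway and line, for members that differed between lines, and for Hk2, Ldha, G6pdx, Pcx and Cs. Other members, Pgd among them, were added after their values were seen. Genes that are no members are at most the 5 of largest change among those that passed per line from the lists of neighbours and the hypoxia list, with the succinate dehydrogenase genes, besides those named as chosen after their values were seen.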

Additional observations from a re-analysis of the deposited data

Results flagged for a closer look

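For 8 members the effect of the deletion differed between lines by the limma interaction test over 18 samples, in 12 tests that passed of the 132 made on the members. Of all genes 11.2% differed for Rptor against Tfam, 7.48% for Rptor against Cox10 and 0.0550% for Tfam against Cox10. A difference is the effect in the Rptor line minus that in the other line, on the log2 scale with its SE. The model shares 1 estimate of the spread over all groups, Rptor deficient replicate 1 included.

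Against the Tfam line, the difference was 0.67 ± 0.19 for Pfkfb3 (adjusted p = 0.0293), which was higher in 3 of 3 deficient lungs than in all controls of its line in both lines. It was -0.32 ± 0.10 for Ldhb (adjusted p = 0.0371). In the TCA cycle it was -0.38 ± 0.06 for Cs (adjusted p = 0.00143), -0.33 ± 0.09 for Idh3a (adjusted p = 0.0277), -0.22 ± 0.07 for Dlst (adjusted p = 0.0371) and -0.32 ± 0.06 for Mdh2 (adjusted p = 0.00459). Each of the 5 genes with a negative difference was below all controls in 3 of 3 Rptor-deficient lungs. Genes were flagged from these same values, so the places of the Rptor samples, those of Pfkfb3 included, add no support. Values of 50.3% of all genes tested did not overlap in the Rptor line. Ldhb did not pass with the Xist covariate (adjusted p = 0.0521). Without Rptor deficient replicate 1 the difference for Pfkfb3 was 0.42 (adjusted p = 0.00693), and Idh3a (adjusted p = 0.0530) and Dlst (adjusted p = 0.0543) did not pass. With each of the 18 samples left out in turn, Cs and Mdh2 passed in 18 fits, Pfkfb3 in 13, Idh3a in 11, Ldhb in 10 and Dlst in 9.

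Against the Cox10 line, the difference was 0.90 ± 0.19 for Pfkfb3 (adjusted p = 0.00692). In the pentose phosphate pathway it was -0.27 ± 0.08 for Pgls (adjusted p = 0.0382) and -0.35 ± 0.09 for Tkt (adjusted p = 0.0261). In the TCA cycle it was -0.29 ± 0.06 for Cs (adjusted p = 0.00957), -0.24 ± 0.07 for Dlst (adjusted p = 0.0341) and -0.35 ± 0.06 for Mdh2 (adjusted p = 0.00280). The 5 genes with a negative difference were below all controls in 3 of 3 Rptor-deficient lungs. They were flagged from these same values, so this adds no support, and 50.3% of all genes tested did not overlap there. Pgls did not pass with the Xist covariate (adjusted p = 0.0505). Without Rptor deficient replicate 1 Pgls (adjusted p = 0.0541) and Dlst (adjusted p = 0.0512) did not pass. Pfkfb3, Cs and Mdh2 passed in 18 of the 18 fits that left out a sample, Tkt and Dlst in 10 each and Pgls in 8.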

How the results depend on the processing

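The count of glycolytic members that passed in the Rptor line was 3 in the report, 7 with the replicate block, 7 with all 18 samples in 1 fit, 6 by DESeq2 and 1 at an adjusted p below 0.01, and 2 to 11 with a sample left out, the 11 without deficient replicate 1. All genes that passed in that line numbered 5202 of 14940 in the report, 5768 with the block, 6007 in the 18-sample fit and 5151 by DESeq2. With a sample left out they numbered 3555 to 5315. The pentose phosphate count of 5 was 3 at an adjusted p below 0.01, 4 under library totals, with no filter and with the Xist covariate, and 4 to 5 with a sample left out, and the TCA count of 7 was 4 and 5 to 7. All genes that passed numbered 5161 of 14965 under library totals, 4951 of 19275 with no filter and 4505 of 14940 with the Xist covariate. In the Tfam line the glycolytic count of 1 was 0 under TMM, with no filter, with the Xist covariate, in the fit of all 18 samples and at an adjusted p below 0.01, 2 with the replicate block and by DESeq2, and 0 to 1 with a sample left out. The Tfam TCA count of 0 was 0 to 2 with a sample left out, the 2 without control replicate 3. All genes that passed in the Tfam line numbered 702 of 15053 in the report, 705 under TMM and 596 of 19265 with no filter. They numbered 853 with the Xist covariate, 408 in the 18-sample fit, 802 with the block and 824 by DESeq2. With a sample left out they numbered 354 to 1114. Members that differed between Rptor and Tfam numbered 6 in the report, 11 with the replicate block, 5 with the Xist covariate, 2 at an adjusted p below 0.01, and 2 to 11 with a sample left out. Between Rptor and Cox10 they numbered 6, 7 with the replicate block, 5 with the Xist covariate, 3 at an adjusted p below 0.01, and 3 to 8 with a sample left out. All genes that differed between Rptor and Tfam numbered 1626 of 14550, 2318 with the block, 1426 with Xist and 852 to 2389 with a sample left out. Between Rptor and Cox10 all genes that differed numbered 1089, 1456, 1050 and 678 to 1814 in the same order. The counts of 0 for Tfam against Cox10, for the Tfam pentose phosphate genes and for the 3 pathways of the Cox10 line were 0 under each alternative run. The cause of these changes was not tested, apart from the stricter threshold.

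Directions turned for values near 0. Hk2 in the Rptor line was at 0.14 by edgeR and 0.15 by DESeq2, and at -0.49 to 0.22 with a sample left out. Ldha in the Cox10 line ranged from -0.0184 to 0.23, G6pdx in the Cox10 line from -0.0617 to 0.0011 and Cs in the Tfam line from -0.0178 to 0.0159 with a sample left out, and Cs in the Tfam line was -0.0019 with the Xist covariate. Over the 15 members that passed in the Rptor line, and Hk2, Ldha, G6pdx, Pcx and Cs in all 3 lines, 432 alternative values kept direction and side of the threshold, 36 lost the call, 2 gained it and 10 turned. Same-numbered samples had r of -0.312, -0.207 and 0.151 in the Tfam line and 0.447, 0.202 and 0.0488 in the Cox10 line, so that these numbers do not pair the samples, and the block there moved the Tfam glycolytic count as given above, the epithelial markers that fell in the Tfam line from 3 to 5 and in the Cox10 line from 1 to 0, and the hypoxia genes that rose in the Tfam line from 0 to 1. In the Rptor line the block left the pentose phosphate and TCA counts at 5 and 7.

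Leaving out a sample leaves 5 in a line, and the fits of a line rest on 3 against 3 samples. Each sample held at least 27675601 reads, and the low counts of Eno1 limit what can be read from it. Deletion was in the epithelium, and an effect in those cells cannot be told apart from a change in their share.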
